A study of Homo sapiens with 8 samples.

Results

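None of 9 genes that make up MHC class I or load peptides onto it passed the test for a change with BEX2 knockdown in HuCCT1 cells against both control vectors. The class II genes HLA-DMB, HLA-DMA and HLA-DQB1 were called higher, but HLA-DMB was dim and HLA-DQB1 kept its call in only some alternative fits. For HLA-DMA and HLA-DQB1 a second probe was also higher but was not called. The 9 genes are the class I heavy chains HLA-B, HLA-C, HLA-E and HLA-F, the light chain B2M, the peptide transporter subunits TAP1 and TAP2, tapasin (TAPBP) and the class I transactivator NLRC5. The genes were chosen by name as members of this pathway, with earlier results of these data known. All 9 passed the filter on dim probes, among 20450 genes tested of 34809 gene names on the array. For each gene the brightest probe by mean over the arrays was used, out of 16 probes for the 9 genes.

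HuCCT1 is an established human intrahepatic cholangiocarcinoma line. Its cells carried 1 of 4 short hairpin vectors, each measured on 2 single-colour Agilent arrays: shControl and shNontarget, labelled as control, and shBEX2-1 and shBEX2-2, labelled as BEX2 knockdown. The study describes 1 control hairpin, against luciferase, and which of the control vectors carried it is not stated, so both served as control. The methods state that BEX2 hairpins were delivered by a retroviral vector, and the target sequences they list for the knockdown sublines are near-complete reverse complements of each other, so that the sublines do not stand for separate target sites. Whether the RNA of a vector's 2 arrays was taken from different cultures is not stated, so that p-values measure only the spread between these arrays, which may be technical. BEX2 itself checked the labels: its log2 level relative to the 75th percentile of each array was highest among control arrays at -2.70 and lowest there at -3.91, and ranged from -5.54 to -4.60 under knockdown, with no overlap. Its log2 fold change was -1.63 (SE 0.32, adjusted p = 0.012), but its probe was well above background on only 2 of the 4 knockdown arrays. With normexp background correction the BEX2 change was -0.45 (adjusted p = 0.080).

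MHC class I molecules display peptides of the cell's own proteins to cytotoxic T cells. Peptides cut by the proteasome are pumped into the endoplasmic reticulum by the TAP1-TAP2 transporter, and tapasin holds the empty heavy chain with its B2M light chain next to the transporter until a peptide binds. HLA-B and HLA-C are classical, highly variable heavy chains, HLA-E is read mainly by receptors of natural killer cells, and HLA-F is a little-varying relative. NLRC5 drives transcription of class I genes, acting through factors bound to the promoter's S-X-Y boxes, and interferons raise most genes of the pathway. Tumor cells often lose class I display and thereby escape T cells, and bile duct cells normally carry it.

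The class I promoters are shown because HLA-B, HLA-C and B2M share a spacing of short motifs. Each sequence covers the 250 bases before the annotated start in RefSeq (GRCh38.p14), 5′ to 3′ on the gene's strand. Capitals mark TGACG followed by ATTGG on the same strand, 15 to 25 bases apart, which are the cores of the X2 and Y boxes, and GAAA, 2 bases of any kind and GAAA again, the core of the interferon-stimulated response element. Both strands were searched.
HLA-B, chr6:31357180-31357429, minus strand: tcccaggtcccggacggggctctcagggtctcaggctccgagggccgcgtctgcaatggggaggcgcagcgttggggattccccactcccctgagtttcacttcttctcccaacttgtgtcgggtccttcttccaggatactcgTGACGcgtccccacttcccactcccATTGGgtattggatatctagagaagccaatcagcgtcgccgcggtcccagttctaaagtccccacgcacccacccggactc
HLA-C, chr6:31272093-31272342, minus strand: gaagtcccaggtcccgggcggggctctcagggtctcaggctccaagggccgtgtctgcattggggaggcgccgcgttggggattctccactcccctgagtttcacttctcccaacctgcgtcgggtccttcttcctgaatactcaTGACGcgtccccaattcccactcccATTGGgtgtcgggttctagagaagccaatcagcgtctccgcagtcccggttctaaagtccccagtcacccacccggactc
HLA-F, chr6:29723184-29723433, plus strand: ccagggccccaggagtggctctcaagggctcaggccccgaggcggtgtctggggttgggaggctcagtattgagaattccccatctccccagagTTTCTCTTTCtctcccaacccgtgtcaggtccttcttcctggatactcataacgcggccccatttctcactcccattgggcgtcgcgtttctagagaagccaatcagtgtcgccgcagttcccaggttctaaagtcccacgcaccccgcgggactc
B2M, chr15:44711267-44711516, plus strand: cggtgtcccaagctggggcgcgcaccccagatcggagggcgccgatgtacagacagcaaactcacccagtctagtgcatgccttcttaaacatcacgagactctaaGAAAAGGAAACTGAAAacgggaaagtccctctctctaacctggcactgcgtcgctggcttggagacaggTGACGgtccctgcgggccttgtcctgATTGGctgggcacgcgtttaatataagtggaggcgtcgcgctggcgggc
TAP1, chr6:32853705-32853954, minus strand: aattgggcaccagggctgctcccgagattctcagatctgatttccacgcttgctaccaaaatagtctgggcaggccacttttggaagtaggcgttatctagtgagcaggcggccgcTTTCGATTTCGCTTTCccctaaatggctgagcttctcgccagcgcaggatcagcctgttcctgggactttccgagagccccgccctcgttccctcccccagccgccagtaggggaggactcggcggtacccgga
TAP2, chr6:32838740-32838989, minus strand: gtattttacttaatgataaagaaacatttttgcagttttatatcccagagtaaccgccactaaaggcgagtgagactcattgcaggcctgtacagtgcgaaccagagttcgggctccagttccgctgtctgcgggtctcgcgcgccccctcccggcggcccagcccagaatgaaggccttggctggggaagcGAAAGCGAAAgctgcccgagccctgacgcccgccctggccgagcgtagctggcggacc
TGACG and ATTGG stood 20 bases apart in HLA-B and HLA-C and 21 bases apart in B2M, and the pair occurred in 3 of the 7 members with a promoter in the table. Of all 35116 promoters of this length, 0.407% held the pair. The second motif stood in 5 of the 7 members (HLA-F, B2M, TAP1, TAP2 and TAPBP) and in 3.02% of all promoters, and its copies in B2M, TAP1 and TAPBP overlap one another. For TAP1 the first of its entries is shown, and HLA-E and NLRC5 have no entry. These matches describe the letters only.

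Against both control vectors, 0 of 9 members were called in the comparison of 4 knockdown with 4 control arrays (limma, Benjamini-Hochberg adjusted p under 0.05), where 12.9% of all genes tested were called. At an unadjusted p under 0.05 there was 1 member, HLA-F, and the t-test of the methods also called 0. The median log2 fold change was -0.09 over the members and 0.03 over all genes. Knockdown and control arrays overlapped for all 9 members, whereas 22.1% of all genes did not overlap.

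**Figure D1:**
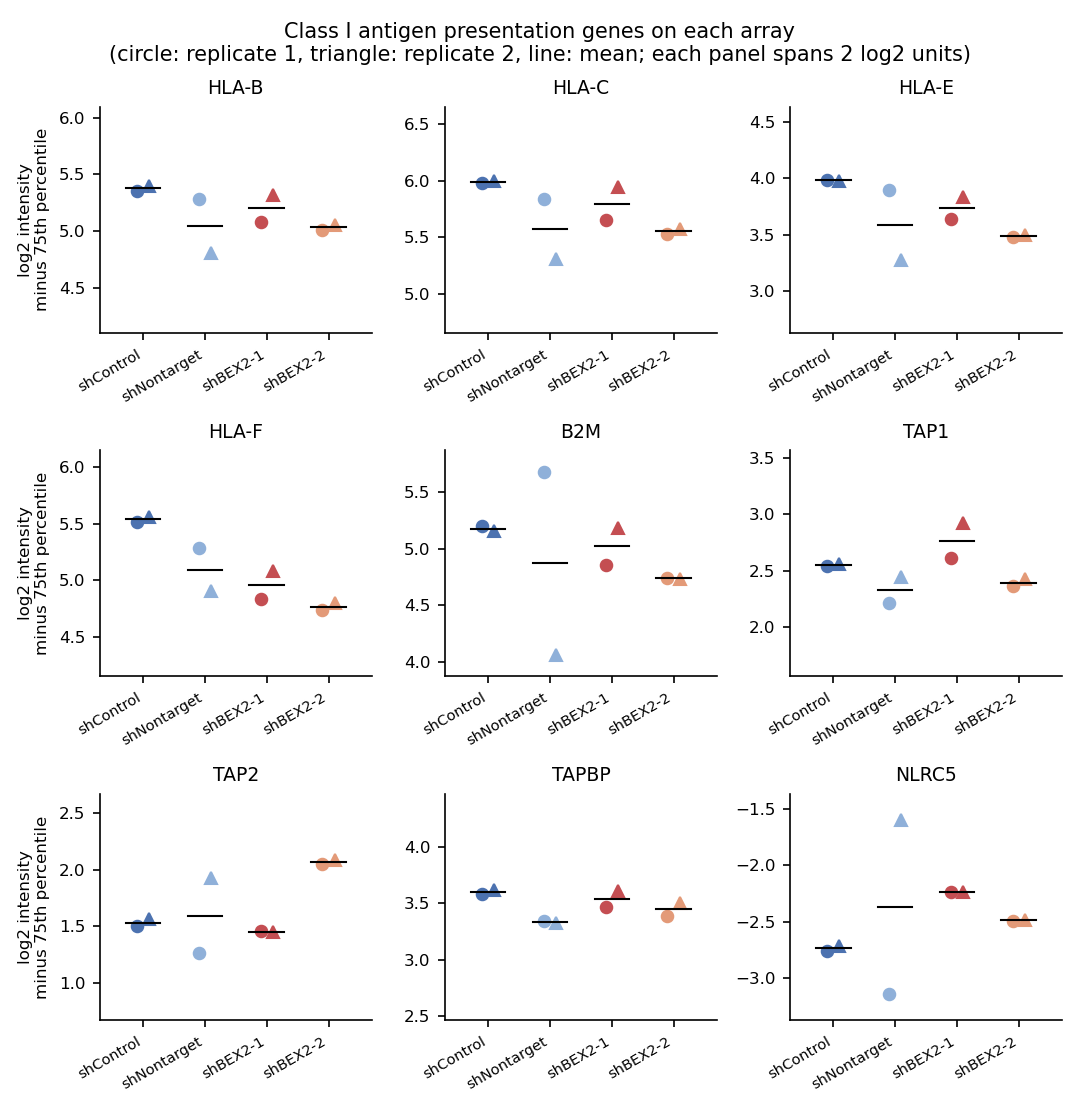
Log2 intensity minus the array's 75th percentile (vertical axis, 2 log2 units in each panel) of the 9 members on the 8 arrays, by vector. Circles are replicate 1, triangles replicate 2 and lines the mean of a vector. The shControl arrays lie close together, the shNontarget arrays of B2M lie at 5.68 and 4.06, and the shBEX2-2 arrays of TAP2 lie at 2.05 and 2.08.

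HLA-F, by the brighter of its probes, had the largest difference among the members. Its values, on the log2 scale relative to the 75th percentile, were 5.52 and 5.56 with shControl, 5.29 and 4.90 with shNontarget, 4.84 and 5.08 with shBEX2-1, and 4.74 and 4.80 with shBEX2-2. Every knockdown array was below both shControl arrays, and the second shNontarget array lay between the knockdown arrays. The log2 fold change was -0.46 (SE 0.18, 95% interval -0.85 to -0.06, adjusted p = 0.13). An exact two-sided permutation test of the 4 against 4 arrays gave p = 0.057, where 0.029 is the smallest value 70 relabellings allow.

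The probes named HLA-F are printed because their design positions differ. The brighter probe, used for HLA-F above and below unless stated, lies at chr6:29857539-29857598 in hg19.
HLA-F, brighter probe: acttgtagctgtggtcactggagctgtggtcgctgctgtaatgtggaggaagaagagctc
The other probe lies at chr6:29692114-29692173, also in hg19.
HLA-F, other probe: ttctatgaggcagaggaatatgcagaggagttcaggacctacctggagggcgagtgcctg
Their starts are 165425 bases apart, and HLA-F spans 15099 bases in GRCh38.p14 so that the design positions are farther apart than the gene is long. HLA-F lies at chr6:29723434-29738532 in GRCh38.p14. The probes of HLA-B, HLA-C and HLA-E have hg19 positions below the GRCh38.p14 starts of their genes, as has the other HLA-F probe. The brighter HLA-F probe has a position above the end of the gene. By design position it thus falls outside HLA-F, and which transcript it reads was not tested. The other probe gave -0.65 and -0.57 with shControl, -0.74 and -1.01 with shNontarget, -1.09 and -0.85 with shBEX2-1, and -1.33 and -1.34 with shBEX2-2. Its log2 fold change was -0.41 (adjusted p = 0.13), and both probes put the vector means in the order shBEX2-2, shBEX2-1, shNontarget and shControl, from low to high.

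The fold changes of the classical heavy chains were closer to 0, and their difference from that of HLA-F was not tested. HLA-B was at 5.36 and 5.40 with shControl, 5.28 and 4.80 with shNontarget, 5.08 and 5.32 with shBEX2-1, and 5.01 and 5.06 with shBEX2-2. Its lowest array was a control array, the second of shNontarget. The log2 fold change was -0.09 (95% interval -0.47 to 0.29, adjusted p = 0.77).

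HLA-C was at 5.98 and 6.0 with shControl, 5.84 and 5.31 with shNontarget, 5.65 and 5.94 with shBEX2-1, and 5.53 and 5.58 with shBEX2-2. It followed the same order of arrays as HLA-B at the top and the bottom, with a log2 fold change of -0.11 (95% interval -0.54 to 0.32, adjusted p = 0.77). HLA-E was at 3.99 and 3.98, 3.89 and 3.28, 3.64 and 3.83, and 3.48 and 3.50 in the same order of vectors. Its log2 fold change was -0.17 (95% interval -0.58 to 0.25, adjusted p = 0.61). For these 3 genes the vector means ran from shBEX2-2 through shNontarget and shBEX2-1 up to shControl, and no neighbours in that order differed beyond the spread in the 4-vector model. The 2 probes of HLA-B overlap by 50 bases with 1 mismatch, and no probe of one heavy chain shared more than 10 bases in a row with a probe of another. Only probes were compared with probes. Whether a probe also binds the transcript of another heavy chain was not tested.

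B2M, the light chain common to all these heavy chains, had the widest spread of the members. It was at 5.20 and 5.16 with shControl, 5.68 and 4.06 with shNontarget, 4.86 and 5.18 with shBEX2-1, and 4.74 and 4.74 with shBEX2-2. The highest and the lowest array were those of shNontarget, and all 4 knockdown arrays lay between them. The log2 fold change was -0.14 (95% interval -0.84 to 0.55, adjusted p = 0.81). Arrays of replicate number 1 alone gave -0.64 and arrays of number 2 alone 0.35, so that the direction turned with the number.

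TAP1 was at 2.54 and 2.56 with shControl, 2.21 and 2.44 with shNontarget, 2.62 and 2.92 with shBEX2-1, and 2.36 and 2.43 with shBEX2-2. The shBEX2-1 arrays were the highest, and the log2 fold change over both sublines was 0.14 (95% interval -0.21 to 0.49, adjusted p = 0.61). TAP2 was at 1.50 and 1.56, 1.26 and 1.92, 1.46 and 1.45, and 2.05 and 2.08 in the same order of vectors. Here the shBEX2-2 arrays were the highest, and the log2 fold change was 0.20 (95% interval -0.27 to 0.66, adjusted p = 0.59). The transporter subunits thus had their highest arrays in different sublines.

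TAPBP varied least by the probe used, over 0.29 log2 units on all arrays. It was at 3.58 and 3.61 with shControl, 3.34 and 3.32 with shNontarget, 3.46 and 3.60 with shBEX2-1, and 3.38 and 3.51 with shBEX2-2, with a log2 fold change of 0.02 (95% interval -0.26 to 0.31, adjusted p = 0.93). The other TAPBP probes ranged over 0.77, 1.75 and 3.90 log2 units. Their log2 fold changes were 0.17, 0.02 and -0.22 (adjusted p = 0.52, 0.98 and 0.87). NLRC5 was at -2.76 and -2.71 with shControl, -3.14 and -1.60 with shNontarget, -2.24 and -2.24 with shBEX2-1, and -2.49 and -2.48 with shBEX2-2. As for B2M, the shNontarget arrays were the lowest and the highest of all. The log2 fold change of NLRC5 was 0.19 (95% interval -0.49 to 0.87, adjusted p = 0.74), and its other probe gave -0.48 (adjusted p = 0.43), of opposite sign.

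The arrays of shNontarget stood apart from each other for the whole array and not for these genes alone. Between them 34.9% of genes differed by more than 1 log2 unit, and between the arrays of any other vector at most 1.76% did. All 8 arrays lay on 1 slide and 1 scan, with control in slide row 1 and knockdown in row 2, so that row and group cannot be told apart. Of the markers of bile duct epithelium, 6 of 6 were tested (KRT7, KRT19, KRT8, KRT18, EPCAM and CDH1) and 1 was called, KRT8 at 1.02 (adjusted p = 0.017). Some markers of other cell types, CD3E, COL1A2, DCN, PECAM1 and ALB among them, were not above background often enough to be tested. Another 6 were tested: PTPRC, CD14, CD68, COL1A1 (fibroblasts), CDH5 (endothelium) and APOA1 (hepatocytes). COL1A1 and CDH5 were well above background on 8 arrays and APOA1 on 6. Of the 6, CD14 (0.54, adjusted p = 0.030) and CD68 (0.99, adjusted p = 0.047) were higher on the log2 scale in the knockdown, and their part in the results below was not tested.

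Leaving shNontarget out of the fit of 4 knockdown arrays changes the control level and the spread together. With shControl alone as control, 2 of 9 members were called, HLA-E at -0.37 (adjusted p = 0.040) and HLA-F at -0.68 (adjusted p = 0.0035), beside 33.5% of all genes. With shNontarget alone, 0 of 9 were called (0 at an unadjusted p under 0.05), beside 1.67% of all genes, and HLA-F was at -0.23 (adjusted p = 0.60). Relative to both shControl arrays, 4 members (HLA-B, HLA-C, HLA-E and HLA-F) were lower and 1 (NLRC5) was higher on all 4 knockdown arrays, as were 26.5% and 28.4% of all genes. The other NLRC5 probe went the opposite way. It was at -3.63 and -3.75 with shControl and between -4.15 and -3.92 on the knockdown arrays.

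**Figure D2:**
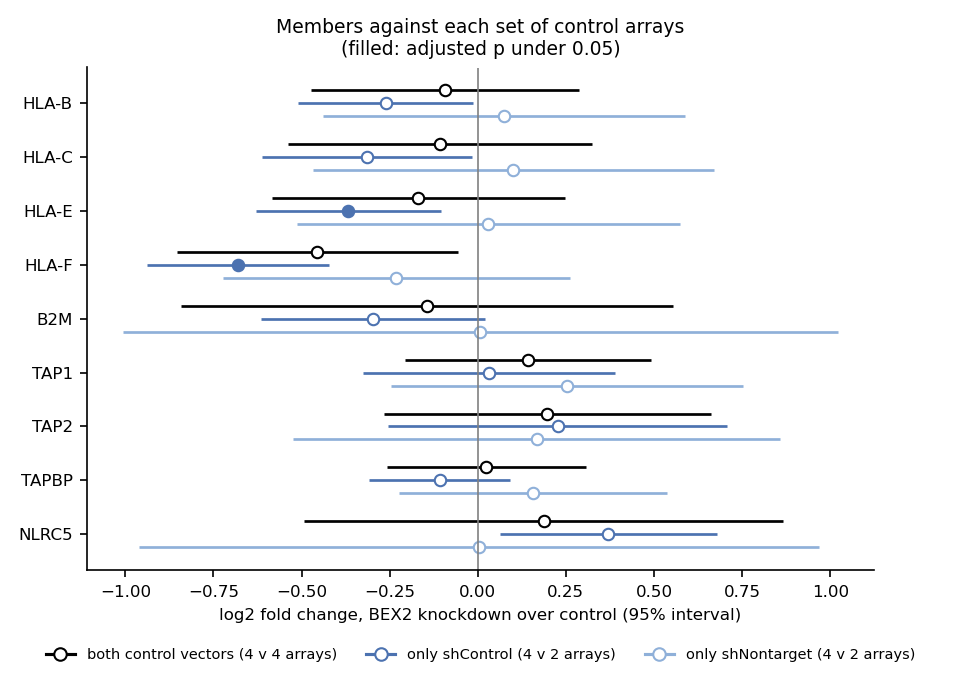
Log2 fold change of BEX2 knockdown over control (horizontal axis, with 95% intervals) for the 9 members against both control vectors, shControl alone and shNontarget alone. Filled points had an adjusted p under 0.05, which holds for HLA-E (-0.37) and HLA-F (-0.68) against shControl alone.

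In the model with 4 vectors, 0 of 9 members were called in shBEX2-1 against both controls, beside 7.03% of all genes, with 0 at an unadjusted p under 0.05. In shBEX2-2, 0 of 9 were called beside 9.67% of all genes, with 2 (HLA-F and TAP2) at an unadjusted p under 0.05. HLA-F was at -0.36 (adjusted p = 0.29) in shBEX2-1 and -0.55 (adjusted p = 0.11) in shBEX2-2, and TAP2 was at -0.11 (adjusted p = 0.80) and 0.50 (adjusted p = 0.18). These comparisons share their control arrays. The sublines compared directly gave 0 of 9 members (1, TAP2, at an unadjusted p under 0.05), beside 0.00978% of all genes, and shNontarget against shControl gave 0 of 9 (0 at an unadjusted p under 0.05), beside 0% of all genes.

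That model takes its spread from all vectors, shNontarget included, and with shControl alone as control within it, 0 of 9 members were called in either subline (1 in each at an unadjusted p under 0.05). Without the shNontarget arrays, an alternative added after the data were seen, 3 of 9 members were called in shBEX2-1 against shControl, beside 43.6% of all genes, and 6 of 9 in shBEX2-2, beside 44.1%. In shBEX2-1 these were HLA-E (-0.25, adjusted p = 0.043), HLA-F (-0.58, adjusted p = 0.0023) and NLRC5 (0.50, adjusted p = 0.0087). The other NLRC5 probe lay the opposite way, 0.40 lower in shBEX2-1 than in shControl (log2 difference -0.40, not tested). In shBEX2-2 they were HLA-B (-0.34, adjusted p = 0.020), HLA-C (-0.44, adjusted p = 0.012), HLA-E (-0.49, adjusted p = 0.0021), HLA-F (-0.78, adjusted p = 0.00051), B2M (-0.44, adjusted p = 0.013) and TAP2 (0.53, adjusted p = 0.00058). The counts stand beside a large share of all genes and describe no property of the members alone.

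Between the sublines, 2 of 9 members were called in that fit, beside 14.6% of all genes, a share close enough that nothing is read from the count. TAP2 was lower in shBEX2-1 than in shBEX2-2 by 0.61 log2 units (log2 difference -0.61, 95% interval -0.77 to -0.46, adjusted p = 0.0018) and TAP1 was higher by 0.37 (95% interval 0.13 to 0.61, adjusted p = 0.0497). With the shNontarget arrays in the model, the same differences had adjusted p-values of 0.60 and 0.74. The other 7 members differed by between 0.09 and 0.28 log2 units and were not called, with intervals that reached from -0.10 to 0.53. Those of HLA-E (0.055 to 0.44) and B2M (0.032 to 0.53) lay wholly on the positive side. At an unadjusted p under 0.05 there were 4 of the 9 members in that fit.

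Across the 8 arrays the heavy chains and B2M varied together. The 10 pairs among them had Pearson r between 0.61 and 1.00, highest for HLA-B with HLA-C, and NLRC5 ran opposite to B2M (r = -0.89), as did TAP2 (r = -0.76). These arrays come in pairs of 1 vector, and the shNontarget arrays set much of each range. Outside the lists, the genes with a profile most like the mean of the members were FTSJD2, now named CMTR1 (r = 0.97), LGALS9 (r = 0.95), JUP (r = 0.95), PAPOLG (r = 0.94) and GNB1 (r = 0.94). FTSJD2 encodes an RNA cap methyltransferase, LGALS9 a galectin and JUP the junction protein plakoglobin, and their own log2 fold changes were -0.02, -0.39 and -0.13, none of them called.

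The rest of the class I pathway was read from a list of 35 genes, of which 33 were tested. Of these 6 were called, 4 higher and 2 lower in the knockdown, or 18.2% beside the 12.9% of all genes. The median log2 fold change was 0.04. With shControl alone 15 were called, beside 33.5% of all genes, and with shNontarget alone 0, beside 1.67%. The called genes were spread over class I-like molecules, loading and transcription, and none came from the proteasome.

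Among class I heavy chains and class I-like molecules, 2 of 4 tested genes were called. HFE, which binds the transferrin receptor and limits iron uptake, was at -3.29 and -3.44 with shControl, -3.63 and -3.25 with shNontarget, -2.31 and -2.50 with shBEX2-1, and -2.34 and -2.36 with shBEX2-2. All knockdown arrays were above all control arrays, by 1.03 on the log2 scale on average (adjusted p = 0.0036). FCGRT, the neonatal Fc receptor that pairs with B2M and recycles IgG and albumin, was lower by the same rule of no overlap, with a log2 fold change of -0.88 (adjusted p = 0.0045). Neither of them presents peptides. HLA-G was at -0.17 (adjusted p = 0.58).

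Among loading and trimming factors, 3 of 6 rose. Calreticulin (CALR), a chaperone that binds heavy chains and many other glycoproteins, was between 5.61 and 6.35 on control arrays and between 6.88 and 7.11 on knockdown arrays, with a log2 fold change of 0.90 (adjusted p = 0.016). PDIA3 (ERp57), the disulfide isomerase of the loading complex, was at 0.62 (adjusted p = 0.019). Its probe maps to chromosome 1 by its design position, and a second probe on chromosome 15 gave 0.70 (adjusted p = 0.017). ERAP2, which trims peptides in the endoplasmic reticulum, was at 0.48 (adjusted p = 0.036) and kept its call under 10 of 22 alternatives. CANX (calnexin) was at 0.56 (adjusted p = 0.061) and ERAP1 at 0.04 (adjusted p = 0.88). TAPBPL, a tapasin relative, was at -0.36 (adjusted p = 0.089), with all knockdown arrays below all control arrays.

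The proteasome gave 0 calls among 9 genes (2 at an unadjusted p under 0.05). The interferon-induced subunits were at 0.01 for PSMB8 (adjusted p = 0.98), 0.60 for PSMB9 (adjusted p = 0.18) and 0.45 for PSMB10 (adjusted p = 0.16), and the activator subunits at -0.32 for PSME1 (adjusted p = 0.49) and 0.55 for PSME2 (adjusted p = 0.12).

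Among 14 tested transcription factors and signalling genes of the pathway, NFYA, a subunit of the factor that binds the Y box, was called, at -0.78 (adjusted p = 0.0088). A second NFYA probe gave -0.06 (adjusted p = 0.83), and the mean of the gene's probes was not called. RFX5, the X box factor, was at 0.21 (adjusted p = 0.27), and IRF1 at -0.0044 (adjusted p = 0.99).

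**Figure D3:**
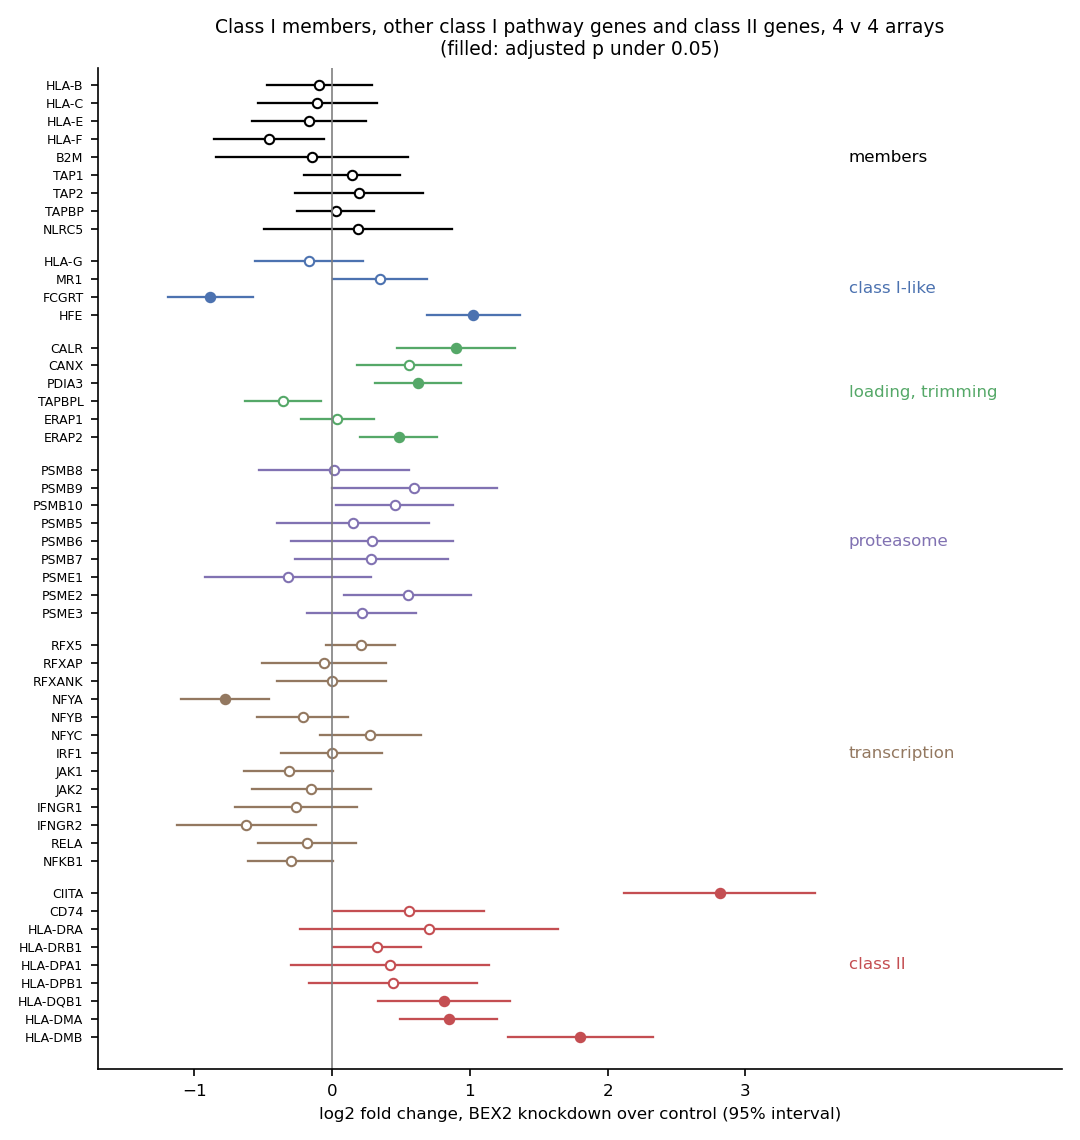
Log2 fold change of BEX2 knockdown over control on 4 against 4 arrays (horizontal axis, with 95% intervals) for the 9 members, other class I pathway genes and the 9 class II genes that were tested. Filled points had an adjusted p under 0.05, which 0 members, 6 other pathway genes and 4 class II genes reached. One of the latter, CIITA, was kept by the filter only through its knockdown arrays.

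Class II genes, which present peptides from outside the cell and are normally confined to antigen-presenting cells unless interferon gamma induces them, were read for contrast. Of 10 listed genes 9 were tested, all 9 had a log2 fold change above 0, and 4 were called, all higher. That is 44.4% beside 12.9% of all genes, but it counts CIITA, which the filter kept only through its knockdown arrays. The share, the common sign and the medians below all include CIITA and are therefore not read as results. Over the 9 tested genes the median log2 fold change was 0.70. It was 0.36 with shControl alone, where 8 were above 0 and HLA-DPA1 was at -0.037, and 0.92 with shNontarget alone. With probes well above background on all arrays, 6 were tested and 2 called, HLA-DMA and HLA-DQB1. CIITA, the class II transactivator and a relative of NLRC5, was at -6.46 and -6.66 with shControl, -5.82 and -5.37 with shNontarget, -3.43 and -3.34 with shBEX2-1, and -3.28 and -3.00 with shBEX2-2. All knockdown arrays were above all control arrays. Its probe was well above background on 4 knockdown arrays but on 1 of 4 control arrays, so that it passed the filter only through the group where it was high. Its fitted log2 fold change of 2.81, or 1.01 with normexp correction, is given as a description, and none of the arrays had the second CIITA probe well above background.

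The peptide exchange factor of class II is the pair HLA-DMA and HLA-DMB. HLA-DMB was at -5.20 and -4.79 with shControl, -4.50 and -5.35 with shNontarget, -3.00 and -3.00 with shBEX2-1, and -3.28 and -3.36 with shBEX2-2, a log2 fold change of 1.80 (adjusted p = 0.0024), and 0.81 with normexp. Its partner HLA-DMA was at 0.85 (adjusted p = 0.0091), and a second HLA-DMA probe gave 0.63 and was not called (adjusted p = 0.069). HLA-DQB1, a chain of a classical class II molecule, was at 0.81 (adjusted p = 0.037) and kept its call under 11 of 22 alternatives. A second HLA-DQB1 probe gave 0.99 and was not called (adjusted p = 0.057). HLA-DMB was called against shControl alone and against shNontarget alone, and HLA-DMA and HLA-DQB1 against shControl alone. The other 5 tested class II genes were at 0.56 for CD74, 0.70 for HLA-DRA, 0.33 for HLA-DRB1, 0.42 for HLA-DPA1 and 0.44 for HLA-DPB1, with none called. HLA-DRA was dim, its probe well above background on only 2 control and 2 knockdown arrays. Beside the leukocyte markers given above, PTPRC, carried by all leukocytes, was at 0.49 (adjusted p = 0.35).

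**Figure D4:**
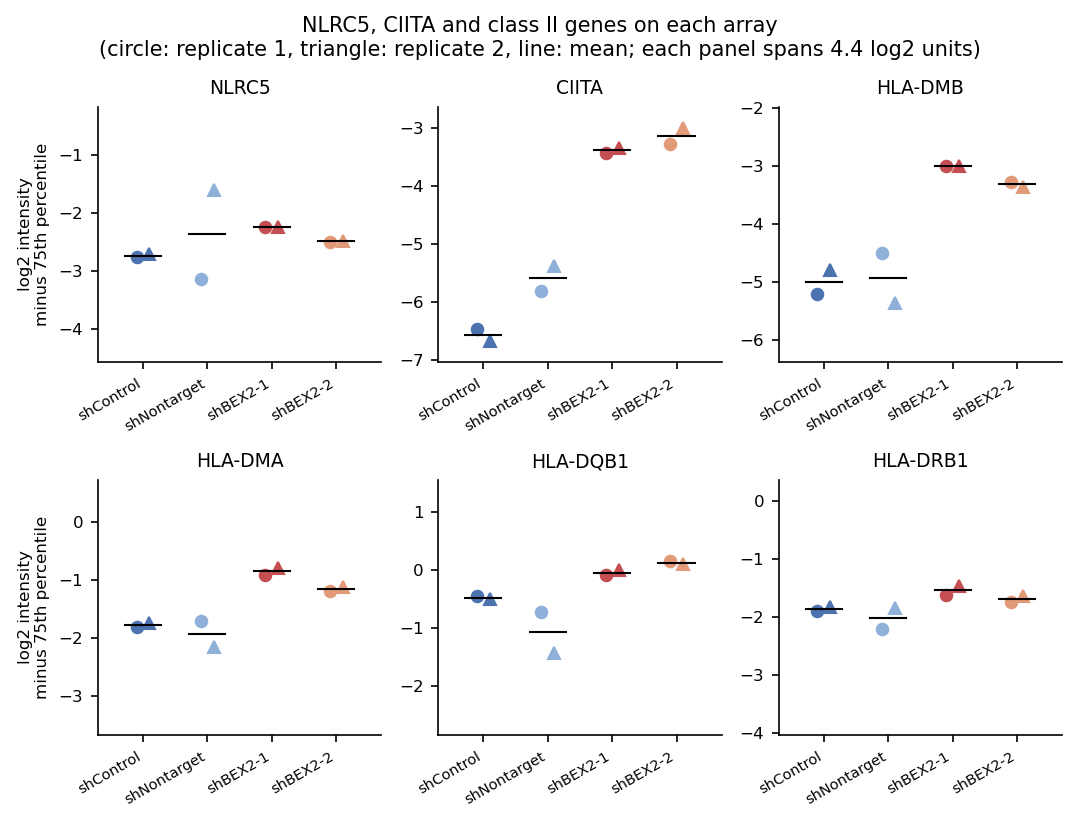
Log2 intensity minus the array's 75th percentile (vertical axis, 4.4 log2 units in each panel) of NLRC5, CIITA and 4 class II genes on the 8 arrays, by vector. Circles are replicate 1, triangles replicate 2 and lines the mean of a vector; CIITA was at or below -5.37 on control arrays and at or above -3.43 on knockdown arrays, while the arrays of NLRC5 overlapped.

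Interferon-response genes, which share inducers with class I, were read beside the members. Of 12 tested, 0 were called over both sublines (0 at an unadjusted p under 0.05), beside 12.9% of all genes. By subline, 1 was called in shBEX2-1, GBP2 (0.76, adjusted p = 0.022), beside 7.03% of all genes. In shBEX2-2 there were 6, all lower, beside 9.67% of all genes. Among them were MX1 (-2.12, adjusted p = 0.0095), IFI6 (-1.93, adjusted p = 0.024) and IFIT1 (-1.72, adjusted p = 0.029). Against shControl alone 0 were called in shBEX2-1, where GBP2 lay 0.23 above shControl, and 5 in shBEX2-2. Of all 20450 genes, 1091 and 1519 were called there. With the replicate number as a block, the count in shBEX2-2 was 4 and that in shBEX2-1 was 1, beside 1597 and 1021 of all genes. The direct comparison of the sublines called 0 of 12 in the 4-vector model (11 at an unadjusted p under 0.05), beside 0.00978% of all genes. Without the shNontarget arrays it called 12 of 12, all lower in shBEX2-2, beside 14.6% of all genes. The 4 heavy chains and B2M were lower in shBEX2-2 than in shBEX2-1 as well, by 0.17 to 0.28 log2 units, and none of those differences was called in either fit. Of all 9 members 8 were lower in shBEX2-2. TAP2 went the other way, higher in shBEX2-2 by 0.61, and was called without the shNontarget arrays (adjusted p = 0.0018).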

How the data were processed

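Total RNA of the 8 samples was labelled by a low-input single-colour method and hybridized to Agilent arrays. Per the file headers and the submitters' processing notes, the authors read the slide with Agilent Feature Extraction 10.7.3.1. The authors' deposited intensity had background and spatial trend removed per array, with no scaling across arrays, and the series-wide table repeats it within 0.497%. Saturated spots were absent, 59.8% to 64.6% of 58717 spots were well above background, and precision is limited by having 8 arrays.

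Control and outlier spots were left out, intensities were taken to log2 minus each array's 75th percentile, and a probe was kept if 4 or more of the 8 arrays had it well above background. The brightest probe stood for a gene. Tests used limma 3.58.1 in R 4.3.3 (lmFit, eBayes with an intensity trend), for 4 against 4 arrays and in a model with 4 vectors, with Benjamini-Hochberg adjustment over 20450 genes. The fit of 4 against 4 arrays was tested on simulated data with the spread of shControl, shBEX2-1 and shBEX2-2. The wider spread between the shNontarget arrays was not simulated. Python 3.11.15, pandas 2.3.3 and matplotlib 3.10.9 made tables and figures, and statmod 1.5.0 the random block.

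File names give each replicate number a day of its own. The deviations of same-numbered arrays had r of 0.26, 0.13, 0.11, -0.063, 0.21 and 0.23 over the pairs of vectors. These values are weak and of mixed sign, so whether the numbers pair the arrays is not settled. The main fits and the permutation test leave such a pairing out, and a fit with the number as a block is an alternative.

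The members and lists were chosen with earlier results of these data known. Named are all members, list genes called in the comparison of 4 against 4 arrays (up to 4 in each direction per list), a set of pathway genes whatever they did, BEX2, and the 5 genes most like the members; other genes named were chosen after their values were seen. Some genes of the lists are not reported here. Of the listed names, 88 of 88 are current RefSeq symbols. Array positions are in hg19 and promoters in GRCh38.p14.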

Additional observations from a re-analysis of the deposited data

Results flagged for a closer look

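Among the 4 control arrays, the second shNontarget array lay far from the others for HLA-E (the gap to its nearest neighbour was 0.868 of the group's range), for CALR (0.853) and for RFX5 (0.869), above Dixon's 95% critical value for 4 arrays. These are 3 of 60 groups of 4 arrays examined for 30 genes, and chance alone marks about 1 in 20. HLA-E was at 3.28 there, below the other 3 control arrays at 3.89 to 3.99. With that array in the comparison of 4 against 4, 0 of 9 members were called, beside 2646 of all 20450 genes. Without it 1 of 9 was called (HLA-F, -0.59, adjusted p = 0.016), beside 4306 of all genes, so that nothing is read from the count.

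Without the shNontarget arrays, 2 of 9 members were called between the knockdown sublines, beside 14.6% of all genes. TAP1 was higher in shBEX2-1 than in shBEX2-2 by 0.37 log2 units (adjusted p = 0.0497), and TAP2 differed by -0.61 (adjusted p = 0.0018). With the shNontarget arrays in the model neither difference was called, with adjusted p-values of 0.74 and 0.60.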

How the results depend on the processing

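For the 4 against 4 arrays, 0 members were called with quantile normalization, normexp, the series table, either filter on dim probes, averaged probes per gene, the replicate block, the vector as a random block, no intensity trend and the methods' t-test, and within each replicate number. With shControl alone as control the count was 2. Leaving out 1 array gave 0 to 1 members for 4 against 4, 0 to 4 for shBEX2-1, 0 to 7 for shBEX2-2, 0 to 2 between the sublines, 0 to 7 between the control vectors, 3 to 10 for the pathway genes and 3 to 4 for the class II genes. Every such change for the members came from leaving out an shNontarget array: without its first array shBEX2-1 had 4 and shBEX2-2 3 members called, and without its second 4 and 7. Without both shNontarget arrays the counts were 3 for shBEX2-1, 6 for shBEX2-2 and 2 between the sublines. Of all genes, 43.6%, 44.1% and 14.6% were called there. Leaving out either shNontarget array also greatly raised the number of all genes called, in each subline, between the sublines and between the control vectors. The rise was thus not specific to the members, and nothing is read from these member counts. Pathway genes went from 6 called to 0 within replicate number 1, 0 within number 2 and 0 with shNontarget alone, and to 15 with shControl alone. Class II genes went from 4 called to 0 within each replicate number, 2 with shNontarget alone, and 2 of 6 tested with probes well above background on all arrays. The replicate block, taken as a pairing by number, called 0 members in every comparison, and HLA-F had a value of -0.46 (adjusted p = 0.15). Within a replicate number 2 arrays face 2, and 0 (number 1) and 207 (number 2) of all genes were called, against 2646 with all arrays (1366 higher, 1280 lower; 1783 and 1032 with normexp).

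Members called with the opposite sign after leaving out an shNontarget array were B2M in shBEX2-1 (0.40, without the first), NLRC5 in shBEX2-2 (-0.32 without the first, 0.45 without the second), and B2M (0.50), TAP2 (-0.27) and NLRC5 (-0.41) in shNontarget against shControl (without the second, against -1.11, 0.39 and 1.14 without the first); there a lone array stands for its vector, its spread taken from the others. The cause was not tested. In the comparison of 4 against 4 arrays uncalled member values changed sign 5 times on leaving out an array and 15 times elsewhere, never for HLA-F.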
